A study of Homo sapiens with 2 samples.

Results

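The 10 microRNAs (miRNAs) that form the 5p and 3p arms of the hairpins of miR-21, miR-210, miR-221, miR-222 and miR-130b were followed in exosomes of HuH-7, an established human hepatocellular carcinoma cell line. They were taken by name from the scanner output, 10 of 2565 miRNAs on the array. The samples were exosomes, small vesicles shed by cells, pelleted by ultracentrifugation from the supernatant of a HuH-7-P culture and of a HuH-7-M culture. Both were grown with fetal bovine serum and changed to advanced DMEM before collection. The letters P and M are not explained in the labels, which name no treatment and do not say whether either line is a clone. The series title concerns lines of high intrahepatic metastatic capacity, and the comparison asks how vesicle miRNAs differ between HuH-7-P and HuH-7-M. The extraction protocol speaks of cells, although both samples are labelled as exosome RNA. Each culture gave 1 array with 1 spot for each miRNA, so no difference below has a replicate, and none could be tested.

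A miRNA hairpin is cut to a short duplex whose 2 strands are called the 5p and 3p arms. As a rule 1 strand, the guide, is kept in an Argonaute protein and pairs with target mRNAs through its seed, bases 2 to 8, while the partner strand is mostly degraded. miR-21-5p is a guide often raised in tumours, where it represses PDCD4, an inhibitor of translation. The guide miR-210-3p is induced by hypoxia-inducible factor and represses mitochondrial genes. miR-221-3p and miR-222-3p are guides from 1 transcript that repress the cell cycle inhibitors p27 and p57. miR-130b-3p is a guide that is often raised in liver cancer and has been linked to tumour-initiating liver cells.

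The mature sequences show which members can share targets. RefSeq (GRCh38.p14) held 8 of the 10, and hsa-miR-21-3p and hsa-miR-221-5p are named only. Each is printed 5′ to 3′ with its seed in capitals.
hsa-miR-21-5p: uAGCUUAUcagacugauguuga
hsa-miR-221-3p: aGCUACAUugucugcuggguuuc
hsa-miR-222-3p: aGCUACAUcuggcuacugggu
hsa-miR-222-5p: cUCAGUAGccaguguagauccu
hsa-miR-210-3p: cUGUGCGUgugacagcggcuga
hsa-miR-210-5p: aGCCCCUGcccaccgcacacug
hsa-miR-130b-3p: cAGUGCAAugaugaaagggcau
hsa-miR-130b-5p: aCUCUUUCccuguugcacuac
miR-221-3p and miR-222-3p shared the seed GCUACAU. They were identical over their first 8 bases and at 11 of 21 positions compared from the 5′ end without gaps. The other guides each had a seed of their own among the members.

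The hairpins are shown next because the comparison below is between their arms, and the mature arms that RefSeq lists are in capitals. MIR21 lies at chr17:59841266-59841337 (plus strand) within VMP1, MIR210 at chr11:568089-568198 (minus) within MIR210HG, and MIR130B at chr22:21653304-21653385 (plus) within LOC107985532. MIR221 at chrX:45746157-45746266 and MIR222 at chrX:45747015-45747124 (both minus) are 748 bases apart within MIR222HG.
MIR21: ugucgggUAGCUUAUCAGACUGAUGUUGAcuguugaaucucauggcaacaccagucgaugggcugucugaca
MIR210: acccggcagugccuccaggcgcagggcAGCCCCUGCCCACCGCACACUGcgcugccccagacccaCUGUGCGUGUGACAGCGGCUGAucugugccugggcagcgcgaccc
MIR222: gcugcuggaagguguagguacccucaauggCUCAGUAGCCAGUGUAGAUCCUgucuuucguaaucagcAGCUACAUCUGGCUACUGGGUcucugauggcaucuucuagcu
MIR130B: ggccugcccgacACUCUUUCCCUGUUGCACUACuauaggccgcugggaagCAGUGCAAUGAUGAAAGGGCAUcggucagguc
In MIR222 the capitals of the 5p arm stand before those of the 3p arm, on either side of the loop, and the same order holds in MIR210 and MIR130B.

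Most members were dim. The spot median, the brightness of a spot in arbitrary units, was set against 320 BLANK spots whose mean was 59.7 ± 1.64 on HuH-7-P, against 58.7 ± 1.63 on HuH-7-M (SD between the spots). A miRNA counted as measured where it passed the BLANK mean plus 2 SD (top and bottom 5% of BLANK spots left out), which was 62.3 and 61.2. Of the 10 members 9 were measured on both arrays, beside 1593 of all 2565 miRNAs, and miR-221-5p was on neither. A second, stricter limit came from 85 spots labelled No Probe and stood at 86.9 and 89.9. On both arrays it was passed by miR-210-5p alone among the members, and by 790 of all 2565 miRNAs. miR-21-5p and miR-221-3p passed it on HuH-7-P only, and miR-210-3p on HuH-7-M only. Single No Probe spots ran from 68.7 to 127 on HuH-7-P and from 64.6 to 102 on HuH-7-M.

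The probes labelled Negative Control 2 and 3, with 16 spots in all, read between 63.0 and 74.97 on HuH-7-P. Their HuH-7-M readings were between 69.9 and 77.5. On each array 4 members were brighter than all of these spots. They were miR-21-5p, miR-221-3p, miR-210-3p and miR-210-5p on HuH-7-P, but miR-221-3p, miR-210-3p, miR-210-5p and miR-130b-3p on HuH-7-M. On HuH-7-P 5 members lay within the negative control range and 1 below it, while on HuH-7-M 1 lay within it and 5 below. These negative controls themselves read higher on HuH-7-M, by means of 72.9 ± 2.49 against 69.2 ± 2.71 (SD over 16 spots of 1 array). The 16 spots of Negative Control 1 were more scattered, from 55.7 to 92.9 on HuH-7-P, against 55.7 to 105 on HuH-7-M. The members above that wider range were miR-21-5p, miR-221-3p and miR-210-5p on HuH-7-P, and miR-210-5p on HuH-7-M.

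**Figure D1:**
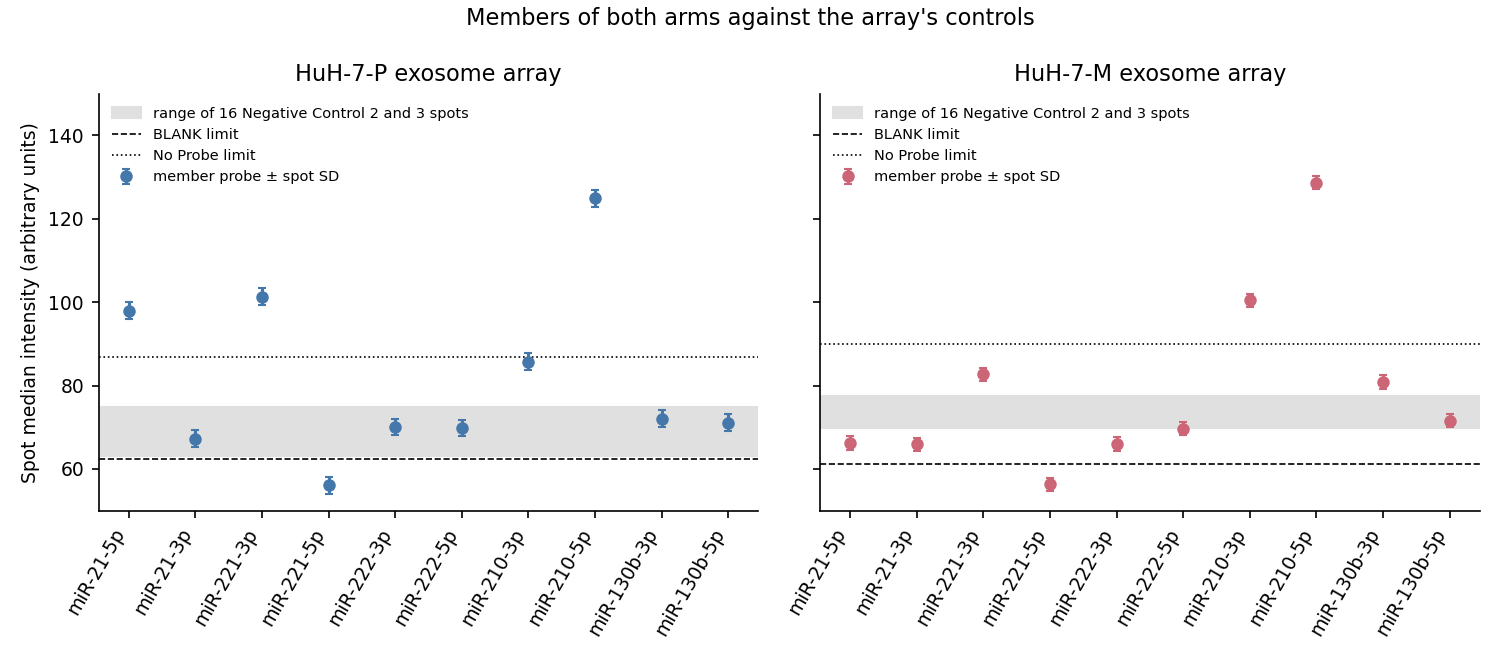
Spot median intensity (arbitrary units, axis from 50) of the 10 members on the HuH-7-P array (left) and the HuH-7-M array (right), with 1 spot each. Bars are the median SD of repeated dim control probes (1.99 and 1.60), the grey band is the range of 16 negative control spots, and lines are the BLANK (dashed) and No Probe (dotted) limits. miR-21-5p stands above the dotted line on HuH-7-P and below the grey band on HuH-7-M.

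Signals given from here on are spot medians minus the mean of the BLANK spots. Differences are log2 ratios of HuH-7-M over HuH-7-P after each array was divided by its median signal over the measured miRNAs (32.5 and 32.1). The error beside a difference is propagated from the spread of repeated spots within each array, whose median SD over 15 dim control probes of 8 spots each was 1.99 on HuH-7-P, against 1.60 on HuH-7-M. It leaves out any spread between cultures, labellings and hybridisations. Of the 15 control probes 1 had a far larger SD, 37.8 for HuH-7-P against 8.59 for HuH-7-M, so a single stray spot can exceed this error. Whether a lower signal means fewer vesicles with a miRNA or less of it in each cannot be told apart.

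Of the 9 measured members, 1 was lower in HuH-7-M exosomes by 2-fold or more, and 0 were higher by as much. Among all 1593 measured miRNAs 4.33% were lower by 2-fold or more, 3.7% higher and 8.04% either, so a count of 1 in 9 does not set the members apart as a set. The members' median difference was 0.12, beside 0.02 over all measured miRNAs, whose quartiles were -0.24 and 0.31. 5 of the 9 were above 0 and 4 below. In 5 of the 9 the difference was more than 2 times its spot error, namely miR-21-5p, miR-221-3p, miR-210-3p, miR-130b-3p and miR-210-5p. The share over all measured miRNAs is not given here, so this count does not set the members apart. For miR-210-5p the error came from dimmer controls, and controls nearer its brightness varied more.

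The oncogenic guide miR-21-5p gave a spot median of 97.9 on HuH-7-P against 66.2 on HuH-7-M, a signal of 38.2 and 7.47 over BLANK. On HuH-7-P it passed the No Probe limit but lay within the range of single No Probe spots, 68.7 to 127. On HuH-7-M it was only 5.05 units above the BLANK limit. The HuH-7-M reading was also below all 16 spots of Negative Control 2 and 3 there, while those of Negative Control 1 ran from 55.7 to 105. The difference computed over BLANK was -2.34 ± 0.32 (spot error). With its HuH-7-M level replaced by the lowest signal past the stricter limit there, miR-21-5p was lower by at least 1.20-fold with the main scaling. With an offset of 50 and quantile normalization the difference was -0.60, and without background subtraction it was -0.54.

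The partner strand miR-21-3p read 67.3 and 65.9, signals of 7.56 and 7.18. Both readings lay within or below the range of the negative control spots. Its difference was -0.06 ± 0.50.

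Next in the order came the guides that share a seed. miR-221-3p read 101 on HuH-7-P against 82.7 on HuH-7-M, signals of 41.6 and 24.0, with a difference of -0.78 ± 0.12. It was the brighter on HuH-7-P by 18.6 units, over 9 times the spot SD of either array, yet within 2-fold. miR-222-3p read 70.1 and 66.0, signals of 10.4 and 7.23, with a difference of -0.50 ± 0.42. Both of its readings lay within or below the range of the Negative Control 2 and 3 spots. Both guides were thus lower in HuH-7-M, but the miR-222-3p value was no more than 1.19 times its spot error, and the gap between the pair (0.27 ± 0.44) was smaller than its error. Their negative values held in each of the other background and scaling settings that gave a value, 12 of 12 for miR-221-3p and 10 of 10 for miR-222-3p. All settings reuse the same spots, so this shows dependence on processing only. With the No Probe mean or the scanner's own background column subtracted, miR-222-3p had no value.

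The partner strands of this locus gave little signal. miR-221-5p read 56.1 and 56.3, below the BLANK mean on both arrays, and has no difference. miR-222-5p read 69.8 and 69.6, signals of 10.1 and 10.9, with a difference of 0.12 ± 0.35.

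The hypoxia-induced guide miR-210-3p went the other way. It read 85.7 on HuH-7-P against 100.4 on HuH-7-M, signals of 26.0 and 41.6, with a difference of 0.70 ± 0.12. Against the lowest HuH-7-P signal that passed the No Probe limit its HuH-7-M signal was higher by at least 1.55-fold, with the main scaling only. When the scanner's own background column was subtracted instead, the value became -2.57, and that column exceeded the spot signal at 21.8% and 16.3% of miRNA spots. The difference was 0.09 on the Spike Control scale, 0.29 with an offset of 50 and quantile normalization, and 0.25 without background subtraction.

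The partner strand miR-210-5p alone among the members passed the stricter limit on both arrays. It read 125 and 129, signals of 65.1 and 69.9. The difference of 0.12 ± 0.05 was small, and its error, taken from dim controls, is likely too narrow for so bright a spot. The difference turned to -0.49 on the Spike Control scale, where the median over all measured miRNAs was -0.59.

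miR-130b-3p had the highest difference of the members, at 0.86 ± 0.25. Its spot read 72.1 on HuH-7-P, within the negative control range, and 80.9 on HuH-7-M, above that range, for signals of 12.3 and 22.1. Of all measured miRNAs 94 had a higher value. Its partner strand miR-130b-5p read 71.1 and 71.6, signals of 11.4 and 12.9, with a difference of 0.20 ± 0.31. The negative controls also had higher mean signals over BLANK on HuH-7-M. Negative Control 2 gave 7.65 on HuH-7-P against 12.6 on HuH-7-M, and Negative Control 3 gave 11.2 against 15.8. The more scattered Negative Control 1 gave 13.1 against 20.2. The part of this rise in the higher values of miR-130b-3p and miR-210-3p was not tested.

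**Figure D2:**
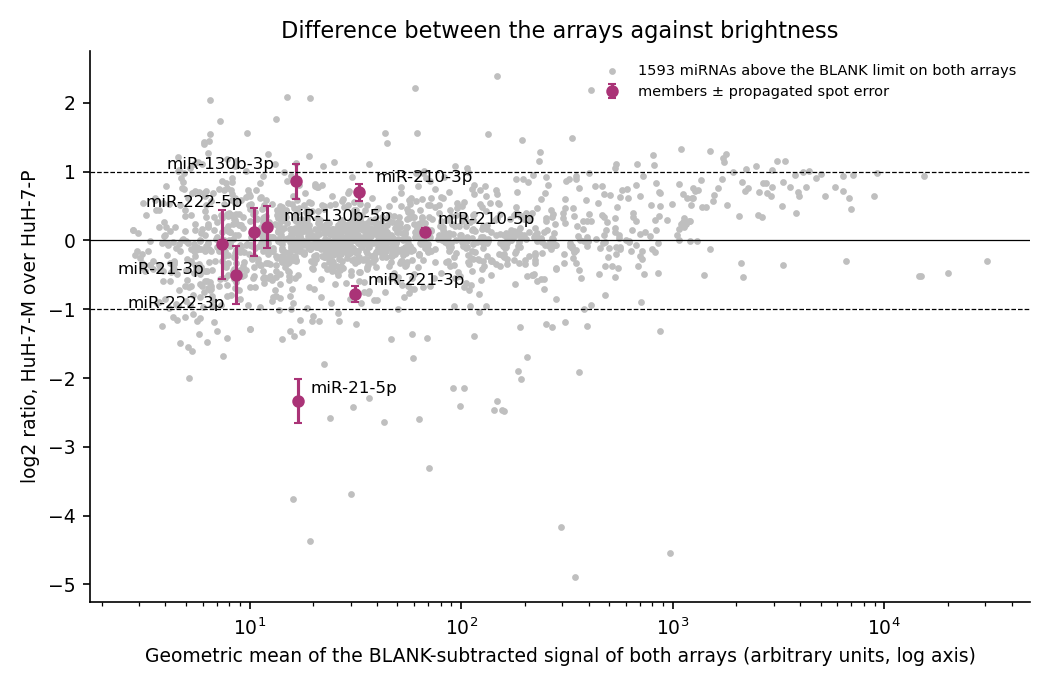
Difference between the arrays (log2 ratio of HuH-7-M over HuH-7-P) against the geometric mean of the BLANK-subtracted signals (log axis, arbitrary units) for 1593 measured miRNAs (grey) and the 9 measured members (purple, bars are the propagated spot error). Dashed lines mark 2-fold; miR-21-5p at -2.34 lies outside them and the other 8 members lie inside.

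Ordered from lowest to highest the differences ran miR-21-5p, miR-221-3p, miR-222-3p, miR-21-3p, miR-210-5p, miR-222-5p, miR-130b-5p, miR-210-3p and miR-130b-3p. Only the step from miR-21-5p to miR-221-3p (1.56 ± 0.34) exceeded 2 times its combined spot error. The step from miR-130b-5p to miR-210-3p was 0.50 ± 0.33. Every other pair of neighbours lay closer together than its error.

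Arms of the same hairpin were then set side by side. Probes of different sequence bind with different strength, so the brightness of the arms is not a measure of which arm was more abundant, and only their differences between the arrays are compared. In miR-21 the 5p arm had the lower value (-2.34 against -0.06), a gap (5p minus 3p) of -2.28 ± 0.59. Both miR-21 arms read below every spot of Negative Control 2 and 3 on HuH-7-M. The gap was -0.58 ± 0.13 in miR-210, -0.66 ± 0.40 in miR-130b and 0.63 ± 0.55 in miR-222. In miR-210 and miR-130b both arms were above 0 with the guide further out, in miR-21 both were below 0, and in miR-222 the arms stood on opposite sides. A scaling factor per array leaves these gaps as they are but can move the sides: on the Spike Control scale miR-210-5p (-0.49), miR-130b-5p (-0.41) and miR-222-5p (-0.48) were below 0. With the scanner's background column the miR-210 gap turned to 1.39.

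Across these hairpins the 5 guides had differences of 0.50 to 2.34 in size, and the 4 measured partner strands of 0.06 to 0.20. With 5 guides and 4 partner strands this is a description of few values. No share of other hairpins that split in this way is given beside it. The sizes overlapped on the Spike Control scale (miR-210-3p at 0.09, miR-210-5p at -0.49), with the scanner's background column (miR-130b-3p at 0.94, miR-210-5p at -1.19) and, by less than 0.01, with the offset of 50. Which arm is the guide is general knowledge of these miRNAs, not a result of these arrays. On both arrays 3 of the 4 partner strands (miR-21-3p, miR-222-5p and miR-130b-5p) read within or below the range of Negative Control 2 and 3. So did the guide miR-222-3p, whose difference was the smallest in size among the guides (0.50). The part that this dimness plays in the small differences of the partner strands was not tested.

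As background, 810 hairpins had both arms on the array, and both were measured in 397 of them, 1 arm in 228 and neither in 185. The median size of the gap between arms was 0.36 (quartiles 0.17 and 0.66), and it reached 1 in 12.6% of the hairpins. It did so in 1 of the 4 member hairpins, miR-21. Both arms stood on the same side of 0 in 232 of 397 hairpins, and in 3 of the 4 member hairpins.

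**Figure D3:**
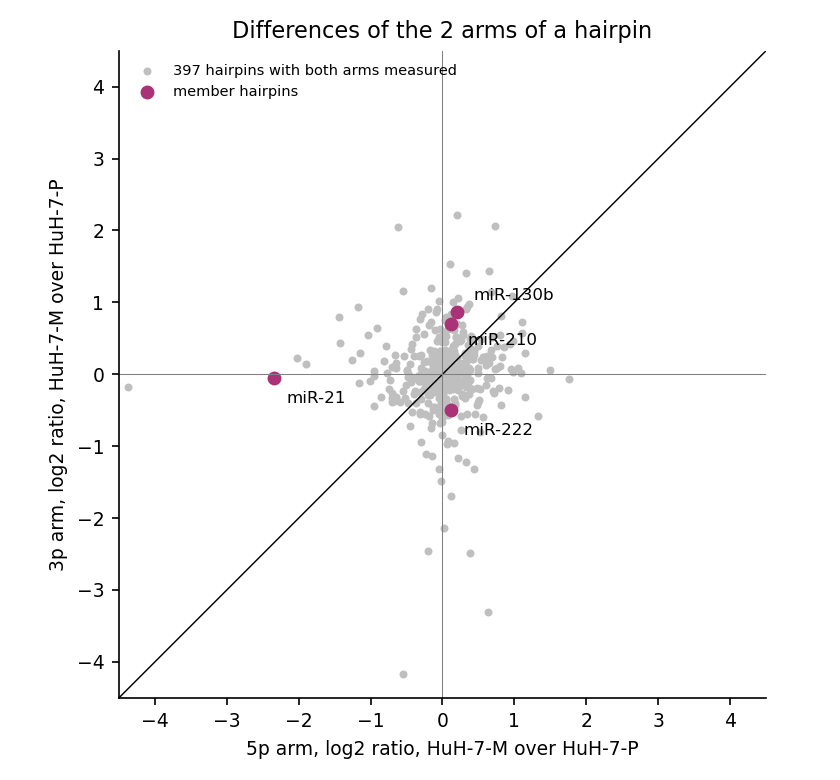
Difference between the arrays (log2 ratio of HuH-7-M over HuH-7-P) of the 5p arm (horizontal) and the 3p arm (vertical) for 397 hairpins with both arms measured (grey) and 4 member hairpins (purple). On the diagonal both arms differ equally; miR-21 lies far to its left at -2.34 and -0.06, while miR-210, miR-130b and miR-222 lie within the main cloud.

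Base composition separated the members and moved with detection on these arrays. Of 2253 probes with a RefSeq mature sequence, 5.01% were measured where the G and C content was under 40%, 63.9% where it was 40 to 60%, and 95.2% where it was over 60%. miR-21-5p, at 36.4% G and C, was 1 of 20 measured among 399 such miRNAs, and 0 of the 399 passed the stricter limit on both. Of those 20, 25% were 2-fold or more apart in either direction, against 7.93% of the measured miRNAs with 40 to 60% and 8.5% of those over 60%. miR-210-3p and miR-210-5p, at 63.6% and 72.7%, belonged to the GC-rich class, in which 69.5% passed that limit on both arrays. The other 5 members with a sequence held 45.5% to 52.4%. The part that base composition plays in which members were measured was not tested.

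Relatives that share a member's seed were compared next, since they would pair with the same sites. The seed of miR-130b-3p recurs in miR-130a-3p, miR-301a-3p, miR-301b-3p, miR-454-3p, miR-3666 and miR-4295, and that of miR-21-5p in miR-590-5p. Of these 7 only miR-130a-3p was measured on both arrays. It read 85.3 on HuH-7-P against 134 on HuH-7-M and was higher there by 1.56 ± 0.12, further than miR-130b-3p. miR-301b-3p, whose mature sequence lies 268 bases from miR-130b-5p in the same locus, read 58.7 and 58.0 and was below the BLANK limit on both arrays, as was miR-590-5p. miR-3666 passed the BLANK limit on HuH-7-M only (62.2 and 62.7). The sequence of miR-301b-3p is printed for the seed, in capitals, and for the first 12 bases that it has in common with miR-130b-3p.
miR-301b-3p: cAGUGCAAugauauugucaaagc
The value of miR-130a-3p was positive in 11 of 11 other settings and at least 2-fold in 8 of them.

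Other miRNAs described as responding to hypoxia were counted beside miR-210-3p. Of 19 listed, 14 were measured, 0 were higher in HuH-7-M by 2-fold or more and 3 were lower by as much, beside 3.7% and 4.33% of all measured miRNAs. The list's median was 0.10, beside 0.02 over all. The 3 were miR-26a-5p, a growth suppressor in liver (67.6 and 61.5, -1.49 ± 0.91), miR-27a-3p (65.7 and 61.2, -1.25 ± 1.04) and miR-20a-5p of the miR-17 cluster (85.8 and 70.3, -1.16 ± 0.23). The HuH-7-M readings of miR-26a-5p and miR-27a-3p were within a unit of the BLANK limit, and their errors are correspondingly wide. With an offset of 50, an offset of 16 or no background subtraction 0 of the 14 were 2-fold lower, and on the Spike Control scale 5 were, with a median of -0.51. On that scale 262 of all 1593 measured miRNAs were lower by 2-fold or more, with a median of -0.59.

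Of 19 further miRNAs often raised in liver cancer, 2 of them also on the hypoxia list, 8 were measured. In HuH-7-M 2 of the 8 were lower by 2-fold or more and 0 higher, beside 4.33% and 3.7% of all measured miRNAs, and their median was 0.05 beside 0.02. miR-500a-3p read 131 and 72.0 (-2.42 ± 0.18), and miR-17-5p, a proliferation-promoting member of the miR-17 cluster, read 97.6 and 76.8 (-1.05 ± 0.15). Both stayed negative in 11 of 11 other settings, but miR-17-5p was 2-fold or more lower in 7 of the 11 (-1.66 to -0.32) and miR-500a-3p in 9 (-3.03 to -0.85). The median of this list was -0.56 on the Spike Control scale, beside -0.59 over all.

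The label of the cells was checked against hepatocyte miRNAs. Of 8 listed, 5 were measured, and miR-122-5p, the main miRNA of hepatocytes, read 99.7 and 126 (0.78 ± 0.08). Also higher in HuH-7-M were miR-885-5p (89.6 and 95.6, 0.32 ± 0.11) and miR-215-5p (67.0 and 68.0, 0.38 ± 0.47). Lower were miR-192-5p (87.5 and 82.8, -0.19 ± 0.14) and miR-194-5p (73.6 and 69.6, -0.34 ± 0.30). miR-148a-3p was above the BLANK limit on HuH-7-M only, and miR-122-3p and miR-101-3p on neither array. The summed signal over all probes of this list, with values below BLANK set to 0, was 119 on HuH-7-P against 154 on HuH-7-M. Such sums set the same probes side by side between arrays and do not rank lists. Of 7 blood cell miRNAs 4 were measured, miR-451a (71.8 and 69.9), miR-486-5p (90.3 and 87.2, past the stricter limit on HuH-7-P), miR-223-3p (68.1 and 66.5) and miR-150-5p (66.3 and 62.8). The other 3, miR-144-3p, miR-142-3p and miR-142-5p, were above the BLANK limit on neither array, and the sums over all 7 were 57.6 and 51.4. Of 8 listed miRNAs of endothelium and stroma 7 had a probe of that name. The remaining stromal miR-199a-3p had only a probe named jointly for it and miR-199b-3p. That joint probe was above the BLANK limit on neither array and was not counted in this list. Measured were the stromal miR-214-3p (104 and 120, past the stricter limit on each array), miR-199a-5p (72.5 and 73.6) and miR-199b-5p (69.7 and 68.2). The endothelial miR-126-3p and miR-126-5p and the smooth muscle miR-145-5p were above the BLANK limit on neither array, miR-143-3p was above it on HuH-7-P only, and the sums over all 7 probes were 72.0 and 88.3. The part of these lists in the members' values was not tested.

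How far each member's value depended on background and scaling is shown across all settings tried. miR-21-5p stayed negative in 11 of 11 other settings that gave a value, from -2.95 to -0.54, and was at least 2-fold lower in 9 of them. miR-130b-3p stayed positive in 11 of 11 (0.19 to 0.94). miR-210-3p was positive in 11 of 12, and miR-21-3p kept its sign in 6 of 11.

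**Figure D4:**
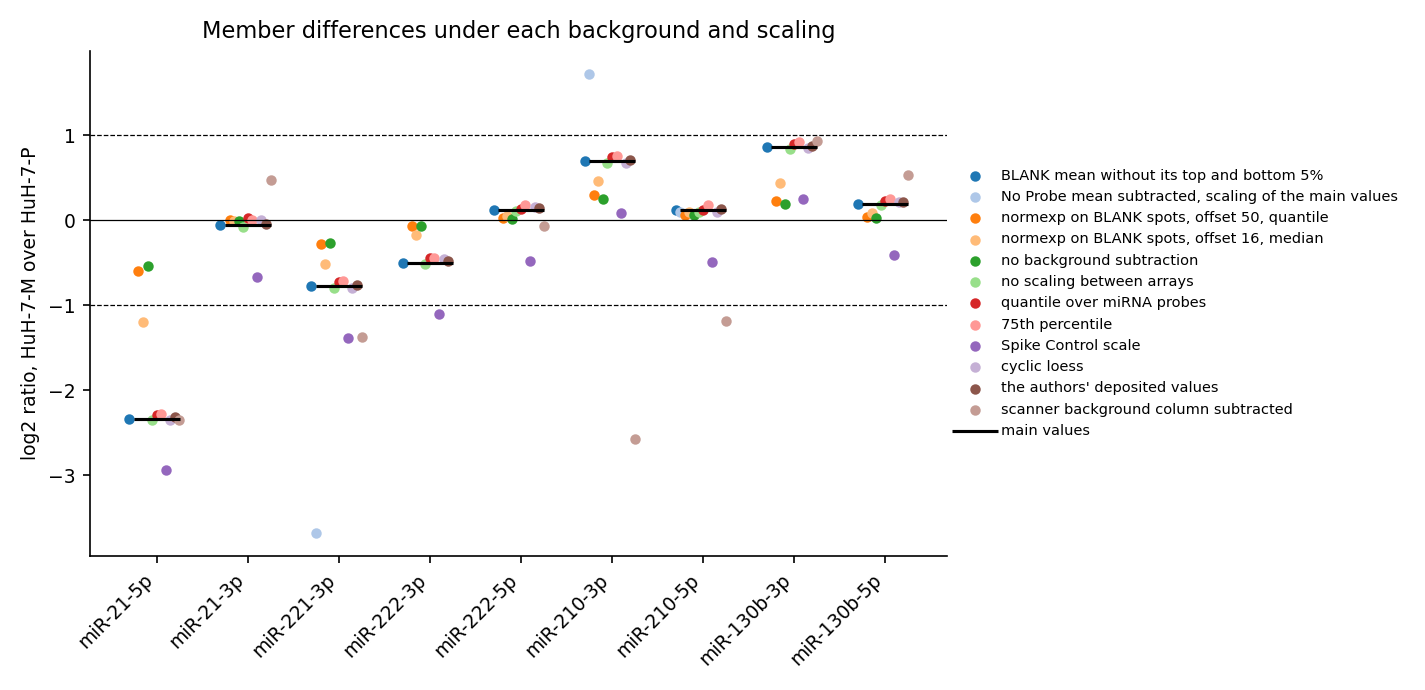
Difference between the arrays (log2 ratio of HuH-7-M over HuH-7-P, vertical axis) of the 9 measured members under 12 other background and scaling settings (coloured points) and in the main values (black bars). Dashed lines mark 2-fold. miR-21-5p and miR-221-3p stay below 0 in all settings that gave a value, and miR-130b-3p stays above it.

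In the authors' deposited table the values of miR-21-5p were 31.4 and 6.29 (log2 difference -2.32). Those of miR-221-3p were 34.1 and 20.2 (-0.76), of miR-210-3p 21.4 and 35.0 (0.71) and of miR-130b-3p 10.1 and 18.6 (0.87), again from the authors' deposited table. For miR-210-5p the row of the authors' deposited table that carries its identifier holds 142 and 152, while the values rebuilt from its spot, 53.5 and 58.8 (0.14), stand under another identifier. For the other 8 measured members the identifier and the rebuilt values were in the same row of the authors' deposited table.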

How the data were processed

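Per the file headers, the deposited scanner output gives each spot's median intensity at 635 nm on a 1-colour 3D-Gene array and the intensity of a column headed background, with no background subtracted. The authors also deposited a table of normalized intensity values, linear, with method and software not given in the sources used here. Its values for 1585 of 1593 measured miRNAs could be rebuilt to a relative tolerance of 1e-06 from trimmed BLANK subtraction and scaling of the median to 25.

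Here the mean of all BLANK spots was subtracted, each array was divided by its median over measured miRNAs, and log2 differences were taken (Python 3.11.15, numpy 2.4.6). No test was run, because each group had 1 array. A 2-fold size was the threshold. Alternatives used limma 3.58.1 in R 4.3.3 for normexp, quantile and cyclic loess. The functions were tested on simulated data. Members, lists and settings were chosen with earlier results of these data known. Named miRNAs are the 10 members, list members past 2-fold (at most 10 per list) and miR-301b-3p. The other seed relatives are named as well. Marker miRNAs and miR-590-5p were chosen after their values were seen. Scanner names were used throughout. All spots were kept.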

Additional observations from a re-analysis of the deposited data

How the results depend on the processing

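Of the 10 members 9 were measured with the main BLANK limit, with 3 SD or with all BLANK spots, and 1, miR-210-5p, with the No Probe limit, under which 0 members were measured on both arrays and 2-fold apart. The main count of 1 member at least 2-fold apart was also found with a trimmed BLANK mean, offset 16, no scaling, quantile, 75th percentile, cyclic loess and the authors' values. The authors' values were matched to spots through the trimmed BLANK mean, so that setting repeats the trimmed one apart from scaling. The count was 0 with offset 50 and quantile and 0 without background subtraction, where larger added constants shrink every ratio. It was 2 with the No Probe mean subtracted (miR-210-3p at 1.73, miR-221-3p at -3.68), a setting that gave values for 3 members only and none for miR-21-5p. It was 3 on the Spike Control scale (miR-21-5p, miR-221-3p and miR-222-3p, all lower) and 4 with the scanner's background column, which was added after seeing the data. The cause of these last changes was not tested. The count of 1 member hairpin with arms at least 1 apart became 0 with offset 50 and 0 without background subtraction, and 2 with the background column. No paired analysis was possible because each group holds 1 array. Most members are within a few spot SDs of the controls, which limits what these arrays can resolve.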
